A study of Caenorhabditis elegans with 2 samples.

Results

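DPL-1 binding was mapped by ChIP-seq in whole first-stage (L1) larvae of Caenorhabditis elegans, and the peaks described here are those that follow directly after the reproducible list. The authors deposited a pooled relaxed list of 23883 peaks, ranked by signal, and a shorter list of the peaks whose ranks repeat well between replicates, cut at a set irreproducible discovery rate (IDR). The 2797 IDR peaks were exactly the 2797 strongest rows of the pooled list. The peaks described were chosen by their deposited signal alone, as ranks 2798 to 5594 of the pooled list, which makes 2797 of 23883 peaks. Both samples were biological replicates of strain OP105, in which the unc-119 allele ed3 is rescued by the integrated array wgIs105 that also carries dpl-1 fused to TY1, EGFP and FLAG. All animals carried the tagged copy, they were of both sexes and pooled, and a control experiment named by the labels was not analysed here. Because whole larvae were used, weak occupancy in all cells and strong occupancy in few cells cannot be told apart.

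DPL-1 is the worm DP protein, which pairs with E2F transcription factors to bind DNA. Together with the retinoblastoma homologue LIN-35 and the MuvB core it forms the DREAM complex, which represses cell-cycle and germline genes in somatic cells. E2F-DP dimers read short GC-rich words, and the MuvB subunit LIN-54 reads the CHR element.

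The 201 bases around the summit of 7 of these peaks are printed to show what lies under signals of about this strength, inside and outside promoters and with and without known words. They were read from the RefSeq genome of WBcel235 (ce11), on the plus strand from 5′ to 3′, with the summit in the middle. E2F words searched were TTTCCCGC, TTTCGCGC, TTTGCCGC and TTTGGCGC, the short E2F core was the same words without the first T (so that each E2F word also holds a core), CHR was TTCGAA or TTTGAA, and GAGA was GAGAGAGA, all on both strands. Each peak was the strongest of its kind outside the chromosome whose sequence is not printed here and clear of UTRs. The glr-4 peak was the strongest with at least 2 CHR words. The pqn-65 peak was added after its values were seen, as the strongest promoter peak with an E2F word found in both replicates under the same conditions on chromosome and UTRs, which were applied to all 201 bases and passed over stronger peaks of this kind.
Y73F8A.26 intron (E2F in capitals), IV:15473952-15474152: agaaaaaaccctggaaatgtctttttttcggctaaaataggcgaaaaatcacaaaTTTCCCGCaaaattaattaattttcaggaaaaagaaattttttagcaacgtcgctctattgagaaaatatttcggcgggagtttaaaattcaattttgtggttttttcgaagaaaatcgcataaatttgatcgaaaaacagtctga
pqn-65 promoter window (E2F in capitals), X:4617005-4617205: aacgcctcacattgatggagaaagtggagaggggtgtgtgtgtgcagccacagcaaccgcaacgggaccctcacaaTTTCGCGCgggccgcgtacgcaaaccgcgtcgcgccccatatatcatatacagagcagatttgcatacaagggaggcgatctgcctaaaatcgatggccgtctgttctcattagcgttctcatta
near nhr-105 (GAGA in capitals), IV:7047894-7048094: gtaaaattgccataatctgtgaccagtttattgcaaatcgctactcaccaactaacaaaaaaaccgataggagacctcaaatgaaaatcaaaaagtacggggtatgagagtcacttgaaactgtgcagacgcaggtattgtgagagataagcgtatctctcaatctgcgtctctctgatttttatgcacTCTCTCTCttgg
near glr-4 (CHR in capitals), II:7792523-7792723: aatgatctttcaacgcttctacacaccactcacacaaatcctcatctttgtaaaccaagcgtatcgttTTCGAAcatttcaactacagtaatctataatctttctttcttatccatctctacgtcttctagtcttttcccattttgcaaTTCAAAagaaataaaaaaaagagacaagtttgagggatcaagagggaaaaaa
ldh-1 intron (short E2F core in capitals), II:11724531-11724731: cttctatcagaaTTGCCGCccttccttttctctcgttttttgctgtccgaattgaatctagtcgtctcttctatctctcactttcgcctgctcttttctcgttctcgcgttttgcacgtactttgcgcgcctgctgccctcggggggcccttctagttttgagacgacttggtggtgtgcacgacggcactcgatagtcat
distal to camt-1 (no E2F, short E2F core or GAGA word), II:4507735-4507935: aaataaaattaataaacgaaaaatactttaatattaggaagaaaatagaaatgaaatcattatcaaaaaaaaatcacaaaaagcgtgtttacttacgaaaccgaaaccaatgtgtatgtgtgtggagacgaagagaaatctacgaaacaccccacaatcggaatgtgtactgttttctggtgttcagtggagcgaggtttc
beside sls-2.14 (no E2F, short E2F core or GAGA word), III:11090444-11090644: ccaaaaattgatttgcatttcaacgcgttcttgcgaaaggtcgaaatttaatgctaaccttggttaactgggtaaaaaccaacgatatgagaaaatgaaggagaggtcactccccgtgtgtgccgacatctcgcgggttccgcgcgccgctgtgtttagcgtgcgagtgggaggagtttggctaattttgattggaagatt

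The Y73F8A.26 peak (rank 2802, signal 30.2) lay both in an intron and in a promoter window of that gene. It was 392 bp downstream of the nearest annotated 5′ end, with TTTCCCGC left of the summit. It ranked 2090 in replicate 1 and 15676 in replicate 2. The pqn-65 peak (rank 2840, signal 29.7) lay 442 bp upstream of the 5′ end and ranked 3388 and 2861. The nhr-105 peak ranked 14784 in replicate 1 and 2292 in replicate 2, and the glr-4 peak ranked 2879 and 4799. These 4 peaks were of near-equal pooled signal while their ranks in the single replicates ranged from 2090 to 15676.

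The signal of the described peaks, in the unstated units of the authors' caller, had a highest value of 30.3, a median of 19.8 and a lowest value of 16.4. The IDR list had a median of 71.5, and the 2797 peaks at the next ranks, 5595 to 8391, had a median of 14.6. Just outside the upper limit stood signals of 30.2820 and 30.2806 and just inside it 30.2748 and 30.2317, while at the lower limit the values were 16.3691 and 16.3682 inside and 16.3645 and 16.3642 outside. There was no step in signal at either limit. The deposited −log10 q value ran from 3.27 down to 0.543, and 1038 of the peaks (37.1%) had a q value of 0.05 or below and 442 (15.8%) of 0.01 or below. All 2797 intervals were 316 bp wide. None shared an interval with an IDR peak, 78 (2.79%) lay within 500 bp of an IDR summit, and the median distance to the nearest one was 8916 bp.

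Most of the described peaks were found again among the strongest rows of 1 replicate, and few among those of both. A summit within 100 bp stood among the 5594 strongest rows of replicate 1 for 1496 of 2797 peaks (53.5%, 51.6 to 55.3) and of replicate 2 for 1078 (38.5%, 36.7 to 40.4). Brackets after a share give exact 95% Clopper-Pearson intervals over peaks, which cover counting error only. In both replicates 427 were matched (15.3%, 13.95 to 16.7), in replicate 1 alone 1069, in replicate 2 alone 651 and in neither 650 (23.2%). The 2 groups seen in 1 replicate alone were thus together the larger part of the set. Of the IDR list 92.7% were matched in both, and of the next ranks 0.2503%. The pooled list was made from both replicates, so these shares are partly built in and were not tested.

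Against the full replicate lists of 30000 rows, 2432 peaks had a summit in replicate 1 and 1937 in replicate 2, 1634 (58.4%) in both and 62 (2.22%) in neither. In replicate 1 the matched rows ranked from 1799 to 29952 with a median of 4609.5, and in replicate 2 from 1127 to 29888 with a median of 4897. Only 228 stood among the 2797 strongest rows of replicate 1 and 286 among those of replicate 2. The median distance between a pooled summit and its replicate summit was 9 bp for replicate 1 and 28 bp for replicate 2. Across the 1634 peaks found in both lists, which were chosen on the pooled signal of the same libraries, the replicate signals had a Spearman rho of -0.166.

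Matching fell with rank inside the set, here in 4 rank groups of equal size. In the strongest group (ranks 2798 to 3497) 41.3% were matched in both replicates and 2.86% in neither. In the following groups the share matched in both was 15.5%, 2.86% and 1.43%, and in the weakest group 46.1% were matched in neither. The peaks nearest to the IDR list were thus most often matched in both replicates. The pooled rank was made from the same libraries, so this fall is partly built in and was not tested.

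**Figure D1:**
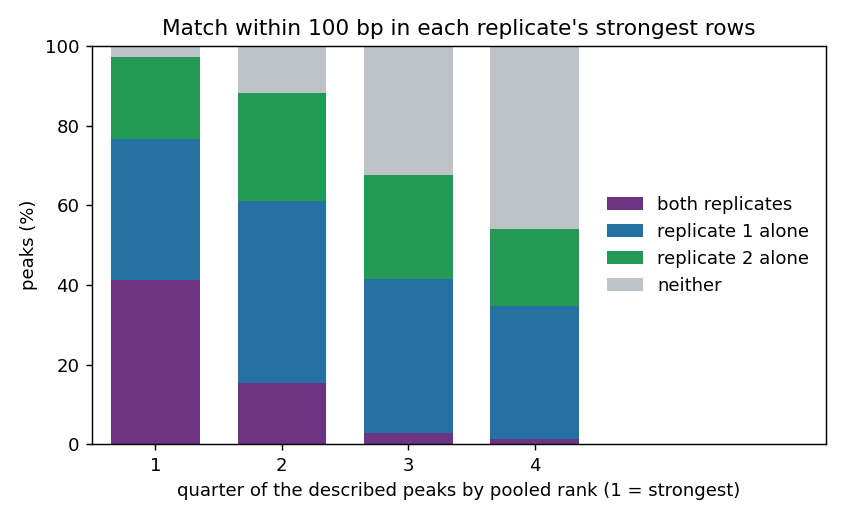
Stacked bars give, for 4 equal groups of the 2797 described peaks by pooled rank, the percentage with a summit within 100 bp among the 5594 strongest rows of both replicates, of replicate 1 alone, of replicate 2 alone or of neither. The share matched in both goes from 41.3% in the strongest group to 1.43% in the weakest.

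The strongest of the described peaks was in an intron and in a promoter window of ldh-1, the lactate dehydrogenase gene (summit II:11724631, signal 30.27). Its signals were 16.6 in replicate 1 (rank 3263) and 12.3 in replicate 2 (rank 2891). Rank 2799 was intergenic, 2948 bp upstream of ctn-1, the α-catulin gene, and held an E2F word, with rank 4282 in replicate 1 and 1996 in replicate 2. The peak upstream of pry-1, which encodes an Axin homologue of the Wnt pathway, ranked 3292 and 2749. A peak shared by lid-1, a lipid droplet gene, and mrpl-34, of the large mitochondrial ribosomal subunit, ranked 2133 and 4119. Both of these promoter peaks were thus found among the strong rows of each replicate.

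The peak 134 bp upstream of the tropomodulin gene unc-94 was strong in replicate 2 (rank 2259, signal 16.2) and weak in replicate 1 (rank 8241, signal 9.66). The peak shared by rab-8, a small GTPase gene of membrane traffic, and D1037.1 stood at rank 2443 in replicate 2 and had no summit in the list of replicate 1. The opposite held for the peak 219 bp upstream of Y58A7A.3, which ranked 2269 in replicate 1 and had none in replicate 2. Peaks also lay 260 bp upstream of mrpl-38 and 5731 bp upstream of lrp-1, a gene of the LDL receptor family. Other promoter peaks of the 20 strongest were those of F26A3.4, of C36A4.4 with maph-1.3 and of C45G9.5 with txbp-3, and those outside promoters were nearest to Y17D7C.6, F01F1.3, F42C5.9, W09D6.5, F56A8.3, C14B4.2 and F13E6.1. Of the 20, 11 were in promoter windows, 11 were intergenic and 7 intronic, and 3 held an E2F word. Matches among the strongest 5594 rows were found for 15 in replicate 1, for 15 in replicate 2, for 10 in both and for each of the 20 in at least 1.

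The 5 strongest peaks with no match among these rows in either replicate were all in introns. They were at dhhc-3 with F33D11.17 (rank 3050, signal 27.4), at vhp-1, a MAP kinase phosphatase gene (rank 3071), near hmr-1, the cadherin gene (rank 3158), near CD4.11 (rank 3191) and near F55A11.6 (rank 3255). Each had a weaker summit in one of the full replicate lists, such as rank 6026 in replicate 1 for vhp-1 and rank 7138 in replicate 2 for dhhc-3.

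Described peaks lay in promoters less often than IDR peaks and more often than the peaks after them. Promoter windows covered the 1000 bp before and the 200 bp after each transcript start of the 19973 protein-coding genes (Ensembl release 115, WBcel235). It held 1268 of the 2797 summits (45.3%, 43.5 to 47.2), against 2094 of the IDR list (74.9%, 73.2 to 76.5; Fisher's exact test, odds ratio 0.278, adjusted p = 6.7e-113) and 910 of the next ranks (32.5%, 30.8 to 34.3; Fisher's exact test, odds ratio 1.72, adjusted p = 6.8e-22). The same ranks of the replicates' own lists gave 40.4% and 42.4%, or 41.4% ± 1.42 (SD, n = 2), against 74.1% ± 1.16 for their strongest 2797 rows and 33.7% ± 0.0758 for the next. The replicate values of the 3 bands did not overlap. P-values are two-sided, adjusted by Benjamini-Hochberg over 32 such tests of which 24 passed at 0.05, and they measure counting error over peaks, which are not independent samples.

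Within the set the promoter share went from 52.6% in the strongest of the 4 rank groups through 47.2% and 41.8% to 39.8% in the weakest. Later bands of 2797 ranks held 30.8%, 29.2%, 27.4%, 26.6% and 26.2%. The described peaks thus stood on the steep part of this slope.

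**Figure D2:**
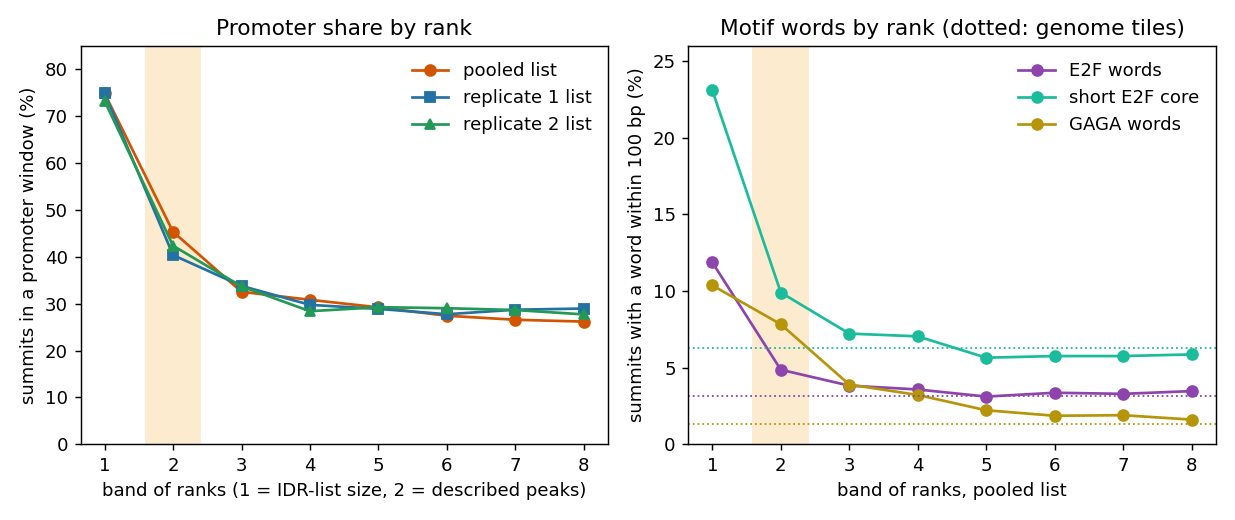
Left, the percentage of summits in a promoter window in successive bands of 2797 ranks of the pooled list and of each replicate's own list, with the band of the described peaks shaded. Right, the percentage of pooled summits with an E2F, short E2F core or GAGA word within 100 bp, with dotted lines at the share of genome tiles of the same length. The shaded band holds 45.3% promoter summits in the pooled list, between 74.9% and 32.5%.

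Promoter summits had, relative to the nearest 5′ end, a median position of -216 bp for the described peaks and -173 bp for the IDR list, upstream being negative. Over all described peaks the median distance to the nearest 5′ end was 886 bp, against 256 bp for the IDR list and 1167 bp for the next ranks. Within 200 bp of a 5′ end were 20.1%, against 41.0% and 12.9%, and over 2000 bp away were 26.5%, against 11.9% and 30.6%. Windows of genes on both strands, as between divergent genes, held 6.76% of the described summits, 27.6% of the IDR summits and 2.61% of the next. These distances were not tested beyond the promoter share.

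**Figure D3:**
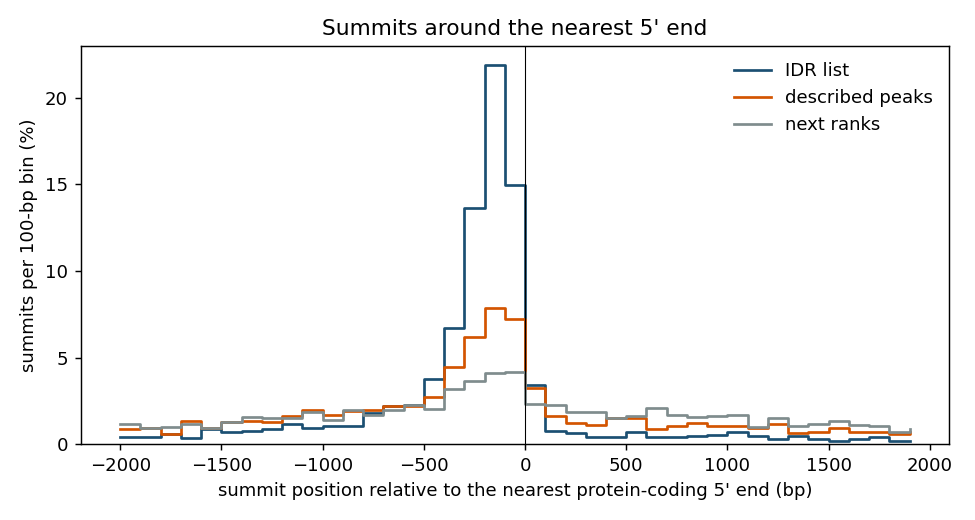
Lines give the percentage of summits per 100-bp bin by position relative to the nearest protein-coding 5′ end, with upstream positions negative, for the IDR list, the described peaks and the next ranks. The described peaks have a crest just upstream of the 5′ end that is lower than that of the IDR list and higher than that of the next ranks.

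Introns held a larger share of the described summits than of the IDR list and a smaller one than of the next ranks. They held 829 summits (29.6%, 28.0 to 31.4), against 14.8% of the IDR list (Fisher's exact test, adjusted p = 6.4e-40) and 34.4% of the next ranks (Fisher's exact test, adjusted p = 0.00039), and the replicates' own ranks gave 29.5% ± 2.02 (SD, n = 2). In replicate 2's own ranks the difference from the next ranks did not pass (28.1% against 30.4%, Fisher's exact test, adjusted p = 0.089). Intergenic summits numbered 1458 (52.1%), against 71.5% and 42.7% (Fisher's exact test, adjusted p = 2.5e-49 and 6.9e-12). Outside promoter windows 540 intron summits were left, or 19.3% of all described peaks.

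Coding or other exons held 343 summits (12.3%), against 8.04% of the IDR list and 16.8% of the next ranks (Fisher's exact test, adjusted p = 5.9e-07 and 4.5e-06). The replicates differed here, with 11.4% in replicate 1 and 18.5% in replicate 2. Of the 343, 177 were in coding exons (6.33% of all, against 0.894% of the IDR list and 12.9% of the next ranks). The other 166 were in exons of non-coding genes or transcripts (5.93%, against 7.15% and 3.93%). The coding part thus rose from band to band while the non-coding part fell. In the alternative with protein-coding genes only, added after seeing the data, the coding part passed against both bands (Fisher's exact test, adjusted p = 1.6e-29 and 3.1e-16). The non-coding part was not tested. The 5′ UTR share was 3.04%, against 4.33% and 1.72% (Fisher's exact test, adjusted p = 0.019 and 0.0026), and the 3′ UTR share 2.93%, against 1.29% and 4.47% (Fisher's exact test, adjusted p = 5.6e-05 and 0.0048). In the replicates' own ranks the 5′ UTR share did not pass against their strongest rows (Fisher's exact test, adjusted p = 0.18 and 0.12), nor the 3′ UTR share against the next ranks (adjusted p = 0.088 and 0.079). In each of the 5 classes the described peaks stood between the IDR list and the next ranks.

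Some genes held several described peaks in their body and were named after their values were seen. The gene mnk-1, which encodes a MAP kinase interacting kinase (II:10542421-10555044), held 8, beside 3 IDR summits and 4 of the next ranks. The genes T28B11.1, Y48C3A.5, the forkhead gene fkh-7, ppfr-1 and the spectraplakin gene vab-10 held 5 each. These genes span from 12624 to 57568 bp.

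Small RNA genes lay within 200 bp of 128 described summits (4.58%), against 149 of the IDR list (5.33%) and 56 of the next ranks (2.00%), and these counts were not tested. For tRNA genes the counts were 81, 59 and 36, and for snoRNA genes 29, 64 and 17. Spliced leader genes of the sls-2 family, whose RNA is trans-spliced to downstream genes of operons, had 5 described summits at 5 genes, 9 IDR summits and none of the next ranks. The strongest of the described ones lay 21 bp from sls-2.14 (III:11090544, signal 30.2), ranked 2886 and 3719 in the replicates, and is the last of the sequences printed above. The treatment of multiply mapped reads is not given in the sources used here, so peaks at gene copies such as tRNA genes are uncertain.

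The X chromosome held a larger share of the described peaks than of the IDR list. It carried 407 summits (14.6%, 13.3 to 15.9), against 254 (9.08%, 8.04 to 10.2) of the IDR list (Fisher's exact test, odds ratio 1.70, adjusted p = 1.0e-09). In the next ranks the share was 15.3% and the difference did not pass (Fisher's exact test, odds ratio 0.943, adjusted p = 0.47). The replicates' own ranks gave 15.2% and 16.2%, or 15.7% ± 0.683 (SD, n = 2), against 9.40% ± 0.860 for their strongest rows. The X makes up 17.7% of the nuclear genome length.

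Per megabase, the described peaks numbered 36.3 on III, 34.4 on I, 28.6 on IV, 27.03 on II, 22.97 on X and 21.8 on V. The same ranks of the 2 replicates gave 35.04 ± 0.205 (SD, n = 2) on III, 33.2 ± 2.91 on I, 29.1 ± 1.78 on IV, 26.9 ± 2.55 on II, 24.8 ± 1.08 on X and 21.7 ± 0.946 on V. The replicate values of neighbours in this order overlapped for III and I, for IV and II and for II and X, and did not for I and IV or for X and V. In the IDR list the density spanned 14.3 on X to 44.3 on III, against 21.8 to 36.3 for the described peaks. Chromosome III was lower in share than in the IDR list (17.9% against 21.8%, Fisher's exact test, adjusted p = 0.00055) and higher than in the next ranks (15.6%, adjusted p = 0.026). Chromosomes I and II were lower than in the IDR list and V was higher (Fisher's exact test, adjusted p = 0.018, 0.023 and 0.026), and IV did not pass (adjusted p = 0.23). In the replicates' own ranks the calls against the strongest rows were lost for I in replicate 1 (Fisher's exact test, adjusted p = 0.10), II in replicate 2 (0.31) and V in replicate 1 (0.26), and the call for III against the next ranks in both (0.068 and 0.64). On X 42.01% of the described summits were in promoter windows, against 65.0% of the IDR summits there, and on V 49.3% against 80.1%.

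**Figure D4:**
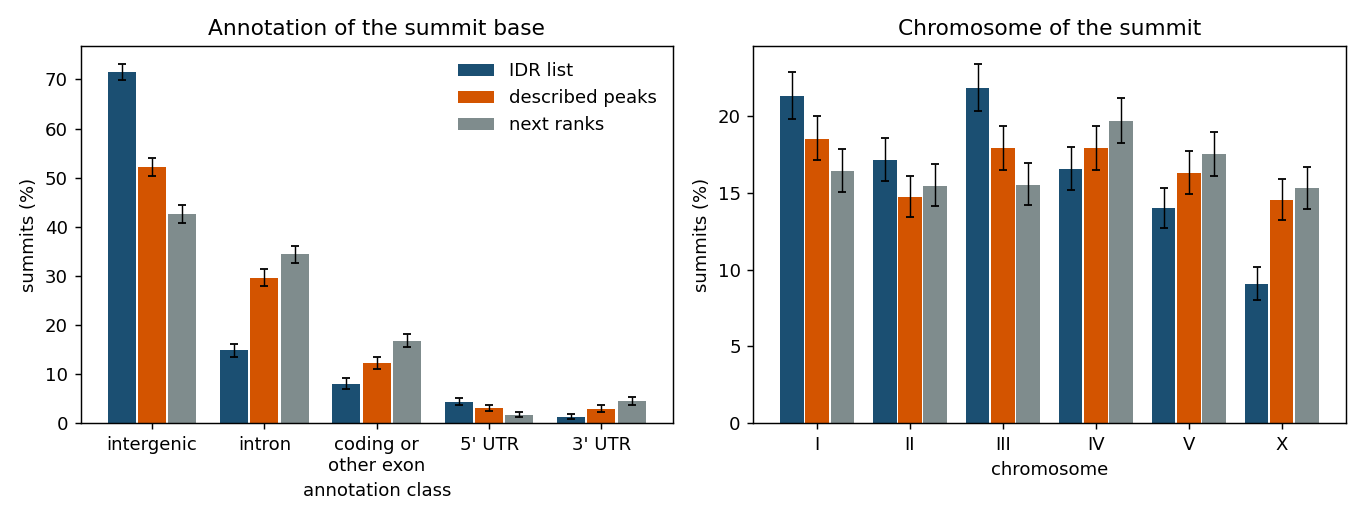
Bars give the percentage of summits by annotation class (left) and by chromosome (right) for the IDR list, the described peaks and the next ranks, with exact 95% Clopper-Pearson intervals over peaks. The described peaks stand at 52.1% intergenic and 29.6% intronic, and at 14.6% on the X chromosome, where the IDR list stands at 9.08%.

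E2F words were less frequent than under IDR peaks. A word such as those in capitals in the Y73F8A.26 and pqn-65 sequences lay within 100 bp of 136 summits (4.86%, 4.09 to 5.73), against 11.9% of the IDR list (Fisher's exact test, odds ratio 0.379, adjusted p = 7.0e-21). In the next ranks it was 3.83%, which did not pass (Fisher's exact test, odds ratio 1.28, adjusted p = 0.081). In the same ranks of each replicate's own list the difference from the next ranks passed, with 4.36% against 2.86% in replicate 1 and 5.43% against 3.43% in replicate 2 (Fisher's exact test, adjusted p = 0.0057 and 0.00072). Of all genome tiles of 201 bases 3.17% held a word, and of the windows ending at a 5′ end 3.29%.

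The share was 7.71% in the strongest of the 4 rank groups and 3.15% in the weakest. It was 4.65% in promoter summits and 5.04% in the others, which was not tested. By word, TTTCCCGC lay near 45 described summits, TTTCGCGC near 45, TTTGGCGC near 29 and TTTGCCGC near 24, while TTTCGCGC led in the IDR list with 134. Of the words within 200 bp of a described summit, 35.04% were within 50 bp, against 53.5% for the IDR list and 31.2% for the next ranks. The short E2F core, as in the ldh-1 intron, was found at 9.90%, against 23.1% and 7.22% (Fisher's exact test, adjusted p = 5.5e-40 and 0.00079) and 6.299% of genome tiles. Within 50 bp of the summit the difference from the next ranks did not pass (5.47% against 4.47%, Fisher's exact test, adjusted p = 0.12).

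GAGA repeats were less frequent than under IDR peaks and more frequent than at the next ranks. They lay within 100 bp of 219 summits (7.83%, 6.86 to 8.89), against 10.4% of the IDR list (Fisher's exact test, odds ratio 0.734, adjusted p = 0.0021), 3.90% of the next ranks (Fisher's exact test, odds ratio 2.09, adjusted p = 1.4e-09) and 1.32% of genome tiles. Of the windows ending at a 5′ end 2.96% held the repeat. The replicates' own ranks gave 7.88% ± 0.632 (SD, n = 2). The difference from the IDR list did not pass for the described peaks stronger than their median (10.2%, adjusted p = 0.89) or with 200 bp on each side (12.3% against 13.4%, adjusted p = 0.27), and for the peaks matched in both replicates the share lay above it (12.6%, Fisher's exact test, adjusted p = 0.23). Outside promoter windows 9.16% of the described summits held the repeat, as the one near nhr-105 does, against 6.23% inside. In the IDR list the same shares were 20.5% and 6.97%.

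CHR words lay near 1418 summits (50.7%), against 52.1% of the IDR list, a difference that did not pass (Fisher's exact test, odds ratio 0.947, adjusted p = 0.34), and 58.5% of the next ranks (odds ratio 0.730, adjusted p = 1.8e-08). The share was 54.8% in genome tiles. Against the IDR list it passed, with lower shares, in replicate 2's own ranks (47.4% against 50.9%), for peaks stronger than the median (46.9%) and for peaks matched in both replicates (46.1%; Fisher's exact tests, adjusted p = 0.016, 0.0031 and 0.048). The GC content of the windows was 37.5% on average for the described peaks, 41.3% for the IDR list, 34.4% for the next ranks and 35.4% for genome tiles, and its part in these word counts was not tested.

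The shares also varied with matching, given here as a description. Of the 427 peaks matched in both replicates, 57.4% were in promoter windows, 7.03% held an E2F word, 12.6% a GAGA repeat and 46.1% a CHR word. Of the 650 matched in neither, 40.2% were in promoter windows, 3.38% held an E2F word, 4.15% a GAGA repeat and 53.7% a CHR word. Peaks matched in replicate 1 alone held GAGA in 6.36% and those in replicate 2 alone in 10.8%. The median pooled signal was 25.5 for those matched in both and 17.7 for those in neither.

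A described summit lay in the promoter window of 1426 of 19973 protein-coding genes (7.14%). Of these, 196 also had an IDR summit and 1230 did not, which is 7.19% of the 17109 genes without one. The next ranks reached 4.99% of the same genes. A described summit in the windows of several genes counted for each, as happened for 214 peaks, and 66 genes had more than 1, at most 3. The replicates' own ranks added 1080 and 1177 genes to those of their strongest rows, 1129 ± 68.6 (SD, n = 2). Lists of genes, given below with their counts and no test, can be read against 7.19%. The gene named for a summit was not always the one with the nearest 5′ end. Another gene had the nearer 5′ end for parp-1, pms-2, pos-1, cosa-1, rps-2, hop-1 and his-14. The same held for iars-1, aars-1, pbs-6, npp-21, bath-41, mrpl-34 and his-59.

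Most DNA replication and chromosome segregation genes had an IDR summit, and described peaks lay at 1 of the remaining genes of each list. No gene of the DREAM complex had a described summit, with 6 of 9 carrying IDR summits. Of 48 DNA replication genes 41 had an IDR summit, and of the other 7 a described peak lay at 1, rpa-2, a subunit gene of the single-strand binding protein RPA (753 bp upstream, signal 29.5), which ranked 2294 in replicate 1 and 8497 in replicate 2. Of 65 chromosome segregation genes 57 had one, and 1 of the other 8 was added, zyg-9, of the microtubule polymerase XMAP215 family (signal 28.6), ranked 3181 and 3160.

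Among 24 cell-cycle control genes without an IDR summit 4 had a described one (16.7%). The strongest were at fzr-1, the Cdh1 activator of the anaphase-promoting complex (signal 29.7, ranks 3522 and 3410), cul-1, the cullin of SCF ligases (26.3, ranks 3741 and 3103), and cyd-1, the cyclin D gene (24.9, ranks 4596 and 4311). All of these 3 were found among the strong rows of both replicates, and none held an E2F word.

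DNA repair genes gave 3 of 27 (11.1%), at brc-2, the BRCA2 homologue (signal 19.4), the mismatch repair gene pms-2 (17.2) and the poly-ADP-ribose polymerase gene parp-1 (17.2). No peak of these was matched in both replicates, and the pms-2 and parp-1 peaks had no summit in replicate 2. Meiotic prophase genes gave 4 of 30 (13.3%), led by syp-2, of the synaptonemal complex (26.5), cosa-1, of crossover sites (24.1), and him-14, the MSH4 homologue (19.7). The him-14 peak, 65 bp upstream, held an E2F word and ranked 10207 and 10161 in the replicates. Germline and P granule genes gave 3 of 43 (6.98%), which were mes-3, of the worm Polycomb complex, pie-1 and pos-1. The pos-1 summit lay in an exon, and the nearest 5′ end, 391 bp away, was that of vha-18. SynMuv chromatin genes gave 4 of 14, among them let-418, the Mi-2 homologue (18.5), zfp-2 (23.5) and sumv-1 (18.8). None of these germline or synMuv genes was matched in both replicates. The mes-3, let-418 and sumv-1 peaks had no summit in replicate 2, where the pie-1 and pos-1 peaks ranked 20397 and 26058.

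Of the 35 mitochondrial ribosomal protein genes without an IDR summit 8 had a described one (22.9%), and 5 of these 8 were matched in both replicates. They were led by mrpl-34 and mrpl-38 (both 30.1) and mrpl-11 (27.2, ranks 4037 and 3972), whose peak held an E2F word. The replicates' own ranks gave 4 and 11 genes of this list. Cytoplasmic ribosomal protein genes, of which 72 of 81 had an IDR summit, gave 2 of 9, rpl-11.1 (23.9) and rps-2 (19.9). Aminoacyl-tRNA synthetase genes gave 3 of 15, iars-1 (29.2), yars-2 (24.3) and aars-1 (23.8). Only 1 of these 3, iars-1, was matched in both replicates, and the replicates' own ranks gave 1 and 6 genes. The yars-2 peak had no summit in replicate 2 and the aars-1 peak none in replicate 1. The proteasome gave 1 of 4, pbs-6 (17.7), and the nuclear pore 3 of 6, npp-21 (28.7), npp-27 (20.5) and npp-4 (16.9). The npp-27 peak had no summit in replicate 1.

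Small RNA pathway genes gave 6 of 33 (18.2%), of which 3 were matched in both replicates. Each replicate's own ranks also gave 6, which need not be the same genes. The strongest were at rrf-2, an RNA-dependent RNA polymerase gene (29.5, with no summit in replicate 2), nrde-3, the nuclear Argonaute gene (28.1, ranks 4443 and 3312), and alg-1, the microRNA Argonaute gene (25.7, ranks 5364 and 3742). Heterochronic genes, which time larval divisions, gave 2 of 7, hbl-1 (21.7) and lin-14 (17.1). The lin-14 peak held an E2F word, and no summit lay within 100 bp in the full list of either replicate.

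Nuclear hormone receptors, ligand-regulated transcription factors of a large worm family, were the list with the most genes reached. Of the 255 genes without an IDR summit 28 had a described one (10.98%), against 20 (7.84%) with a summit at the next ranks. Over all genes without an IDR summit these shares were 7.19% and 4.99%. Only 6 of the 28 were matched in both replicates, and the replicates' own ranks gave 20 and 31. The strongest were at nhr-87 (28.6, with no summit in replicate 2), nhr-35 (28.1, ranks 5396 and 2354) and nhr-182 (28.0, ranks 2905 and 3646). Homeobox genes gave 7 of 80 (8.75%), near the share over all genes, with ceh-93 (28.2), the labial Hox gene ceh-13 (25.5) and ceh-83 (22.4) in front, all matched in both replicates. Wnt and Notch genes gave 3 of 33 (9.09%), which were pry-1, the Nemo-like kinase gene lit-1 (28.9) and the presenilin gene hop-1 (17.8).

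Lists of tissue genes ranged from 2.17% for the intestine to 11.1% for muscle. Muscle structure genes gave 5 of 45 (11.1%), led by the actin gene act-4 (22.8), the parvin gene pat-6 (18.7) and unc-87 (17.6), and none of the 5 was matched in both replicates. Neuronal genes gave 3 of 48 (6.25%), egl-21, which processes neuropeptides (27.3), ida-1 (22.99) and rgef-1 (19.7). Of 46 intestinal genes only fat-6, a fatty acid desaturase gene, had one (17.2), with no summit in replicate 1. Epidermis and cuticle genes gave 6 of 96, led by the hedgehog-related genes wrt-3 and wrt-5 and by grl-26, and cuticle collagens 8 of 150 (5.33%), led by col-42, col-101 and col-185. Of these, the wrt-3 summit lay 10 bp from a snoRNA gene and the grl-26 summit 15 bp from a tRNA gene. The col-185 summit lay inside a tRNA gene, 874 bp upstream of col-185.

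Core histone genes gave 4 of 60 (6.67%), led by his-59 and his-60, which share a peak (29.1), and his-14 (17.7). Neuropeptide genes gave 6 of 137 (4.38%), led by nlp-33 and ins-27, and F-box and MATH-domain genes 16 of 374 (4.28%), led by fbxa-141, bath-41 and fbxa-37. Detoxification genes gave 12 of 178 (6.74%), with gst-33 and ugt-26 among them, and innate immunity and C-type lectin genes 7 of 308 (2.27%), with spp-14 and clec-57. The clec-57 summit lay 34 bp from a snRNA gene. The lowest share of the lists with any gene was that of chemoreceptors, with 13 of 1302 (0.998%), led by srh-170, sre-23 and srh-269. Here the sre-23 summit lay 19 bp from a snoRNA gene and the srh-269 summit 83 bp from a tRNA gene. The chemoreceptor share was below that of the next ranks, 34 of 1302 (2.61%). The share was also below that of the next ranks for the DREAM complex, intestine, neuronal, epidermis and cuticle, cuticle collagen and innate immunity lists. For neuronal genes, for example, it was 6.25% against 8.33%. In the remaining lists it was equal or higher. These differences were not tested.

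**Figure D5:**
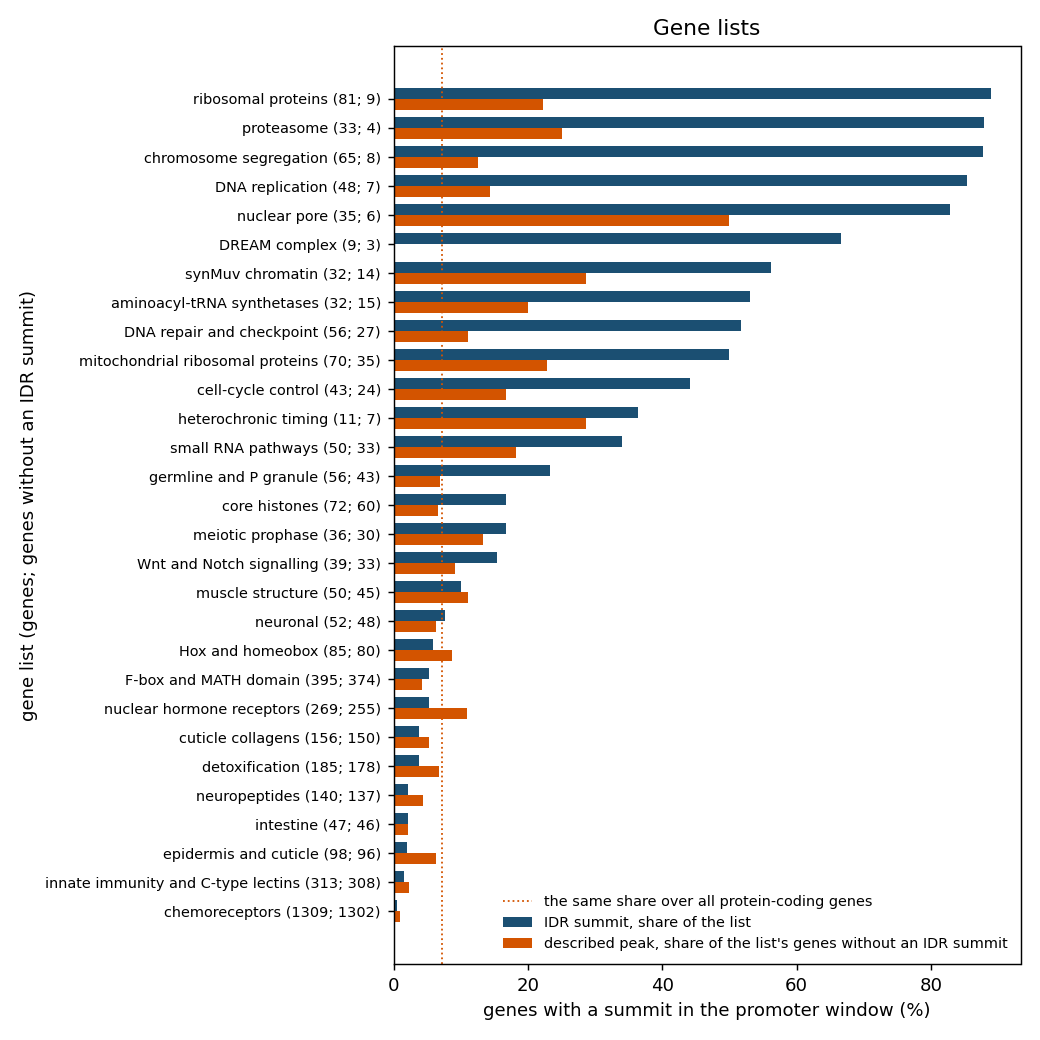
For each gene list, one bar gives the percentage of its genes with an IDR summit in the promoter window, and the other the percentage with a described peak among its genes without an IDR summit. The dotted line marks the same share over all protein-coding genes, 7.19%, and the brackets give the number of genes in the list and of those without an IDR summit.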

How the data were processed

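The series held 2 ChIP-seq samples of 1 group. Relaxed peak lists of each replicate and of the pooled replicates, each against 1 control, and an IDR list were made by the authors, per the deposited listing. Neither the aligner, the peak caller nor the IDR threshold was given in the sources used here. A peak's deposited signal is the authors' own value of unstated scale, and it was compared only within a list. The deposited −log10 q value is also the authors' and was used only to count peaks past 0.05 and 0.01. Summit offsets, another deposited column, gave the summit as start plus offset, on ce11, 1-based.

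Depth is unknown, as no read counts stand in the lists. Annotation came from Ensembl release 115 for WBcel235 and sequence from RefSeq. Each base was classed as coding or other exon, 5′ UTR, 3′ UTR, intron or intergenic, in that order, over all genes. Peaks were compared with Fisher's exact tests (Python 3.11.15, scipy 1.17.1, numpy 2.4.6, pandas 2.3.3, matplotlib 3.10.9), checked on simulated data. The members and the 29 gene lists were chosen with earlier results of these data known, and 22 of 713 listed names had no match in the annotation. Genes named were those of the 20 strongest peaks, of the peaks at the rank limits, up to 3 per list with the strongest described summit and no IDR summit, and of the 5 strongest unmatched peaks. Alternatives changed the replicate, the strength, matching and spacing of the peaks, the windows, the distances, the build and, added after seeing the data, the genes used for annotation.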

Additional observations from a re-analysis of the deposited data

How the results depend on the processing

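Of 222 values recomputed under an alternative, 171 kept direction and side of the threshold or, without a test, were not counted as moved. Of the others 27 no longer passed, 11 newly passed, 12 moved and 1 reversed. For none was the cause tested. Promoter shares kept their calls under every alternative run, and leaving out peaks near stronger summits, the ce10 lists, other promoter windows, nearest genes only and protein-coding genes only (added after seeing the data) changed no call. The reversed result was the GAGA share against the IDR list, 12.6% for peaks matched in both replicates. The peaks stronger than the median gave no pass against the IDR list for 5′ UTRs (3.65%), 3′ UTRs (2.15%), chromosomes I (19.5%), II (15.7%) and V (16.4%) and GAGA (10.2%), none against the next ranks for III (17.02%), and a pass for I (19.5%) and E2F (5.87%) against the next ranks and CHR (46.9%) against the IDR list. Peaks matched in both replicates gave no pass against the IDR list for 5′ UTRs (4.22%), exons (10.1%), 3′ UTRs (1.64%) and chromosomes I (20.4%), II (15.7%), III (18.7%) and V (15.9%), none against the next ranks for III (18.7%), and a pass for E2F (7.03%) against the next ranks and CHR (46.1%) against the IDR list. With 50 bp around the summit the short E2F core against the next ranks did not pass (5.47%), and with 200 bp GAGA against the IDR list did not (12.3%). Leaving out 1 replicate changed calls for 5′ UTRs (3.36% to 3.43%), introns (28.1% to 30.9%), 3′ UTRs (2.82% to 3.40%), chromosomes I (16.8% to 18.98%), II (13.7% to 15.7%), III (17.2% to 17.3%), IV (17.4% to 18.98%) and V (15.7% to 16.7%), E2F (4.36% to 5.43%) and CHR (47.4% to 53.8%). The genes reached, 1426 in the main setting, were 828 with the peaks stronger than the median and 302 with peaks matched in both. Lower counts of 1021 with promoter windows of 500 bp upstream and 1216 with nearest genes only were not counted as moved. Matching in replicate 1 was 46.9% at 50 bp, 57.8% at 200 bp, 86.95% in the full list and 8.15% in the 2797 strongest rows, and in replicate 2 28.7%, 43.9%, 69.3% and 10.2%. Peaks near a stronger summit were 0.393% at 200 bp and 9.55% at 1000 bp. No paired analysis was possible because the series has 1 group. Depth is unknown, so weak and undetected sites cannot be told apart.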
